A study of Drosophila melanogaster with 12 samples.

Results

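The yolk protein genes Yp1, Yp2 and Yp3 are the 3 Drosophila melanogaster genes whose products fill the oocyte with yolk. They were found by their FlyBase symbols and are 3 of the 17559 gene IDs counted in each of 12 RNA libraries from dissected gonads. Each of the 4 groups had 3 replicates, which the labels call biological, and all 4 groups carried a mutation in bam, a gene that germ cells need to leave the early dividing state. The groups were bam ovary (ovaries with no RNAi), bam testis (testes with no RNAi), mCherry RNAi ovary (bam mutant ovaries with RNA interference against mCherry, a sequence that is not a fly gene, as the control knockdown) and Sxl RNAi ovary (bam mutant ovaries with RNA interference against Sex lethal). Flies were 1 to 3 days old and raised at 25 °C, and all ovaries came from virgin females. The sources used here give neither the bam allele nor the RNAi lines and their driver, so the cells in which the knockdown acted are unknown.

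In flies the yolk proteins are made in the fat body of adult females, which secretes them into the hemolymph, and in the somatic follicle cells that surround the oocyte. The oocyte takes them up by endocytosis through the receptor Yolkless. Sex lethal starts the female splicing cascade through transformer and doublesex, and the female and male Doublesex proteins act in opposite directions on the enhancer that drives Yp1 and Yp2 in the fat body, while separate enhancers drive them in follicle cells. Germ cells that lack bam multiply as undifferentiated cells and do not build egg chambers.

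Yp1 (FBgn0004045) lies on the X chromosome at chrX:10053811-10055498 on the plus strand of build BDGP6, with 2 exons. Yp2 (FBgn0005391) lies beside it at chrX:10050951-10052636 on the minus strand, also with 2 exons, so the pair is transcribed in opposite directions from starts separated by 1174 bases. Yp3 (FBgn0004047) has 3 exons and lies 3.7 Mb away at chrX:13759546-13761547 on the plus strand. The antisense gene asRNA:CR45601 occupies 875 bases inside the second exon of Yp1 and had 0 reads in all 12 libraries. Among genes that lie wholly within exons of an opposite-strand gene with a mean of at least 1000 reads, 30 of 30 had 0 reads, so reads over 2 genes were assigned to neither. Yp1 was therefore counted over at most 736 of its 1611 exonic bases, which lowers its level against the other genes and applies equally to every library.

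**Figure D1:**
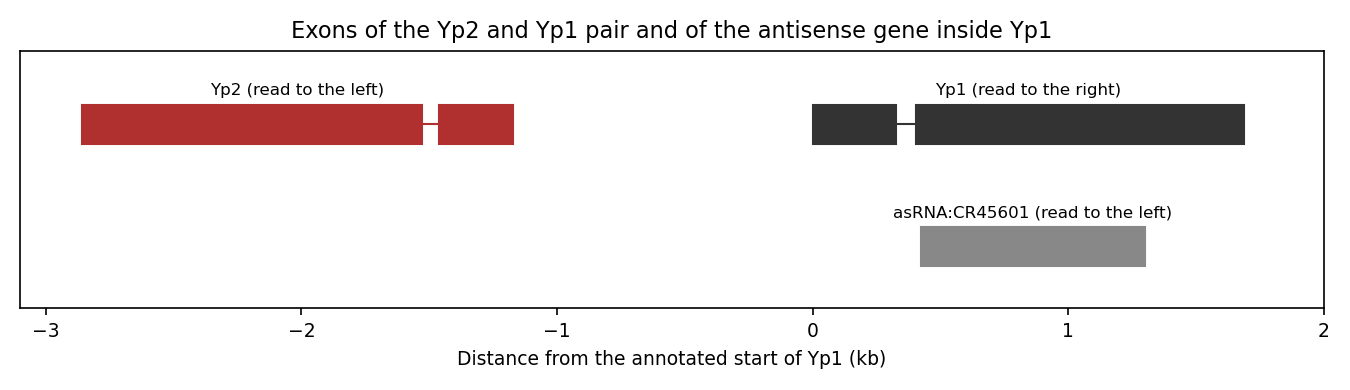
Exons (boxes) and introns (thin lines) of Yp2, Yp1 and asRNA:CR45601, drawn to scale by distance in kilobases from the annotated start of Yp1. The antisense gene covers 875 bases of the second exon of Yp1, and the starts of Yp1 and Yp2 face away from each other across 1174 bases.

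Libraries held between 16152230 and 25097969 reads assigned to genes. Levels are given in CPM, counts per 1000000 assigned reads scaled by the trimmed mean of M values over the 12 libraries, and fold changes come from a separate fit to the 6 libraries of each comparison. The targeted gene Sxl stood at 494, 511 and 536 CPM in mCherry RNAi ovaries and 139, 199 and 224 CPM in Sxl RNAi ovaries. Its log2 fold change was -1.44 (SE 0.18, adjusted p = 0.0466 by the edgeR quasi-likelihood test with Benjamini-Hochberg adjustment, which gave all adjusted p-values of single genes below). Of 5 male marks, genes such as CG15930 and roX1 RNA that are known from male cells, 5 were higher in testes than in bam ovaries, where 16.4% of all genes tested were called higher, with sums of 891 to 979 CPM against 89.7 to 106 CPM. Of the 5, lncRNA:roX2 and FDY passed the minimum of 10 reads only through the testes, so their direction was fixed. Bulk RNA cannot tell fewer cells of a type from less RNA in each cell, and this holds for every level and fold change given.

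Yolk protein RNA was abundant in all 9 ovary libraries and scarce in the 3 testis libraries. The 3 genes together took 0.474% ± 0.0495 (SD, n = 3) of assigned reads in bam ovaries. In ovaries with mCherry RNAi the share was 0.362% ± 0.0403, with Sxl RNAi it was 0.281% ± 0.0190. In bam testes they took 0.00308% ± 0.000287. By CPM, Yp2 ranked 12, 17 and 41 among all genes in the bam ovaries.

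Yp1 stood at 794, 743 and 681 CPM in bam ovaries, 486, 630 and 513 CPM in mCherry RNAi ovaries, and 414, 378 and 367 CPM in Sxl RNAi ovaries. In testes it stood at 0.604, 0.688 and 0.367 CPM, which rested on 10, 9 and 7 reads. The bam ovaries were highest and the testes lowest, and no library of one group fell within the range of another, which held for 1.7% of the 10382 genes that passed the count filter over the 12 libraries. Yp2 stood at 3534, 2964 and 2848 CPM in bam ovaries, 1713, 2054 and 1827 CPM in mCherry RNAi ovaries, and 1449.7, 1420.2 and 1607 CPM in Sxl RNAi ovaries. Its testis levels were 1.99, 3.67 and 1.57 CPM from 33, 48 and 30 reads. The groups of Yp2 took the same order as those of Yp1, and again did not overlap, as a description with no test.

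Yp3 had another order. It stood at 725, 873 and 818 CPM in bam ovaries, 1003, 1547 and 835 CPM in mCherry RNAi ovaries, and 1103, 711 and 772 CPM in Sxl RNAi ovaries. The 3 ovary groups of Yp3 overlapped, and its highest values were in mCherry RNAi replicate 2 and Sxl RNAi replicate 1. In testes Yp3 stood at 30.7, 36.4 and 24.05 CPM from 509, 476 and 459 reads, below every ovary library but well above Yp1 and Yp2 in the same testes.

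**Figure D2:**
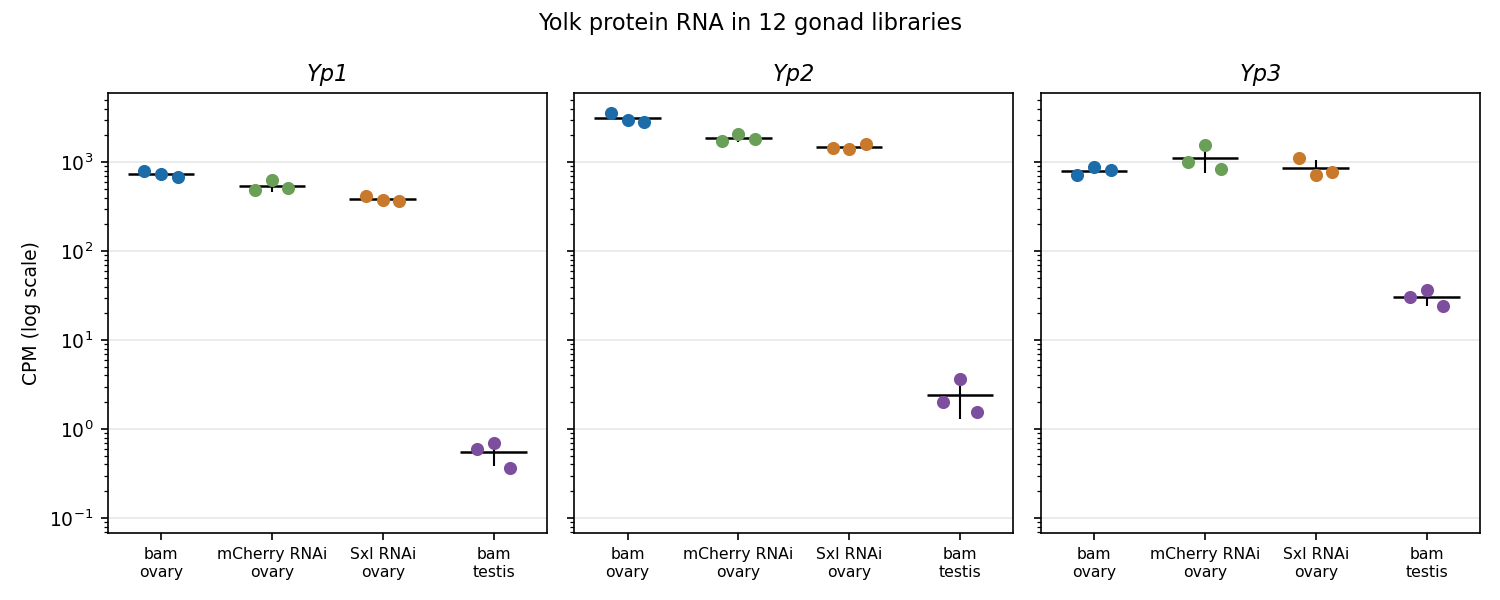
Level of Yp1, Yp2 and Yp3 in CPM on a log axis, with 1 point per library, a horizontal bar at the group mean and a vertical bar of 1 SD (n = 3). Yp1 and Yp2 stand at means of 739 and 3116 CPM in bam ovaries and 0.553 and 2.41 CPM in testes, and Yp3 at 805 and 30.4 CPM.

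Per kilobase of countable exon, Yp2 was the most abundant of the 3 genes in ovaries. In bam ovaries it reached 1926 ± 227 CPM per kb (SD, n = 3), against 1004 ± 77.5 for Yp1 over its 736 countable bases and 431 ± 40.0 for Yp3. Without the correction for countable length Yp1 came to 459 CPM per kb, close to Yp3, so the order of Yp1 and Yp3 rests on that correction. In mCherry RNAi ovaries the corrected values were 1152 ± 107 for Yp2, 738 ± 104 for Yp1 and 604 ± 199 for Yp3, and the SDs of Yp1 and Yp3 overlapped. In Sxl RNAi ovaries they were 922 ± 62.0 for Yp2, 525 ± 33.2 for Yp1 and 461 ± 113 for Yp3, where Yp1 and Yp3 again overlapped. In testes the order was turned round, with Yp3 at 16.3 ± 3.31, Yp2 at 1.49 ± 0.687 and Yp1 at 0.751 ± 0.227 CPM per kb.

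The comparison of bam testes with bam ovaries asked which RNAs differ between the sexes when germ cells are held at an early stage. Yp2 and Yp3 were lower in testes, where 32.7% of 9738 genes tested were called in either direction and 16.3% were called lower. Yp2 gave a log2 fold change of -10.37 (SE 0.41, 95% interval -11.36 to -9.38), or 1326-fold (adjusted p = 3.63e-05). Yp3 gave -4.74 (SE 0.20, interval -5.22 to -4.26), or 26.8-fold (adjusted p = 4.12e-05), and its interval did not reach that of Yp2. Yp1 stood at -10.41 (SE 0.27, interval -11.04 to -9.77), or 1356-fold, but it passed the minimum of 10 reads only through the ovary libraries. Its direction was therefore fixed by the filter in all 3 testis comparisons, and its values there are a description with no test, while Yp2 and Yp3 reached the minimum in testes as well. Among the 277 genes with a mean of at least 500 CPM in bam ovaries, the ratio of ovary to testis CPM ranked Yp1 at 3, Yp2 at 4 and Yp3 at 7.

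The same testes were set against both RNAi groups, so these contrasts share the testis libraries with the first. Against mCherry RNAi ovaries, where 41.7% of 10022 genes were called and 20.8% were lower in testes, Yp2 was 785.5-fold and Yp3 37.2-fold lower (adjusted p = 2.12e-05 and 7.91e-05), and the Yp1 levels stood 988-fold apart. Against Sxl RNAi ovaries, where 41.1% of 9736 genes were called and 21% were lower in testes, Yp2 was 639.8-fold and Yp3 28.9-fold lower (adjusted p = 2.51e-05 and 6.85e-05), and the Yp1 levels stood 719-fold apart. Ovaries with Sxl RNAi thus held between 28.9 and 719 times the testis level of each yolk protein gene.

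The comparison of Sxl RNAi with mCherry RNAi ovaries asked what knockdown of the female determinant Sxl does to ovary RNA. The knockdown was partial: Sxl was 2.72-fold lower than with mCherry RNAi, and testes were 2.42-fold lower still (adjusted p = 0.034). The cells in which it acted are unknown, so the values do not show the effect of full loss of Sxl. None of the 3 yolk protein genes passed the threshold, in a comparison where 0.209% of 10059 genes were called in either direction and 0.0895% lower. Before adjustment, 2 of the 3 had an edgeR p under 0.05, and with DESeq2 1 of the 3, Yp1, passed after adjustment. DESeq2 called 327 of the 10059 genes in this comparison, against 21 by edgeR. Yp1 was at 386 ± 24.4 CPM in Sxl RNAi and 543 ± 76.3 CPM in mCherry RNAi ovaries (SD, n = 3), a log2 fold change of -0.48 (SE 0.13, interval -0.79 to -0.17, adjusted p = 0.234). With DESeq2 the Yp1 value was -0.49 (adjusted p = 0.0152), so this call depends on the tool. Yp2 gave -0.31 (SE 0.13, interval -0.60 to -0.01, adjusted p = 0.408), and Yp3 gave -0.38 (SE 0.27, interval -1.02 to 0.27, adjusted p = 0.678). Yp3 rested on 1 library: without mCherry RNAi replicate 2 its value was -0.08, and the others left out in turn gave -0.60 to -0.25.

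Whether the effect of sex exceeded that of this partial Sxl knockdown was itself tested in a fit to all 12 libraries, and the 2 effects share no library. Yp2 and Yp3 were lower by more in testes against ovaries than in Sxl RNAi against mCherry RNAi ovaries, in a contrast that called 25.6% of 10382 genes in either direction and 13.7% in this one. The difference on the log2 scale was -10.04 (SE 0.39) for Yp2 and -4.34 (SE 0.37) for Yp3, with adjusted p-values of 7.35e-08 and 1.24e-05. For Yp1 it was -9.91 (SE 0.28), given as a description because its testis reads lay below the count minimum.

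The mCherry RNAi ovaries were also set against the bam ovaries without RNAi. The bam allele, RNAi lines and driver are unknown, so an effect of the RNAi construct cannot be told apart from other differences between these groups. Yp2 was lower in mCherry RNAi ovaries, at 1865 ± 173 CPM against 3116 ± 367 CPM (SD, n = 3), with a log2 fold change of -0.75 (SE 0.16, interval -1.12 to -0.37, adjusted p = 0.0423). It was the only 1 of the 3 genes called, where 6.11% of 9940 genes were called in either direction and 2.32% lower. This call ended when any of the 6 libraries was left out, with values of -0.83 to -0.66 and adjusted p-values of 0.0540 to 0.177. Yp1 gave -0.45 (SE 0.15, interval -0.80 to -0.10, adjusted p = 0.127), and DESeq2 called it at -0.46 (adjusted p = 0.0250), among 1262 of the 9940 genes. Yp3 gave 0.48 (SE 0.24, interval -0.08 to 1.05, adjusted p = 0.284), which came to 0.18 without mCherry RNAi replicate 2.

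Ovaries with Sxl RNAi, set against the same bam ovaries, had lower Yp1 and Yp2. Here 5.98% of 9667 genes were called in either direction and 2.53% were lower, and 2 of the 3 yolk protein genes were among the latter. Yp1 was lower (log2 value -0.93, SE 0.12, interval -1.21 to -0.64, adjusted p = 0.00830), though without Sxl RNAi replicate 3 the adjusted p was 0.0529 at a value of -0.89. Yp2 was 2.07-fold lower (-1.05, SE 0.14, interval -1.38 to -0.72, adjusted p = 0.00867) and stayed past the threshold with each library left out. Yp3 gave 0.11 (SE 0.19, interval -0.34 to 0.56, adjusted p = 0.794), and its sign turned to -0.11 without Sxl RNAi replicate 1. Both RNAi groups thus showed lower mean Yp1 and Yp2 than bam ovaries, and the values of the 2 contrasts share the bam ovary libraries.

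**Figure D3:**
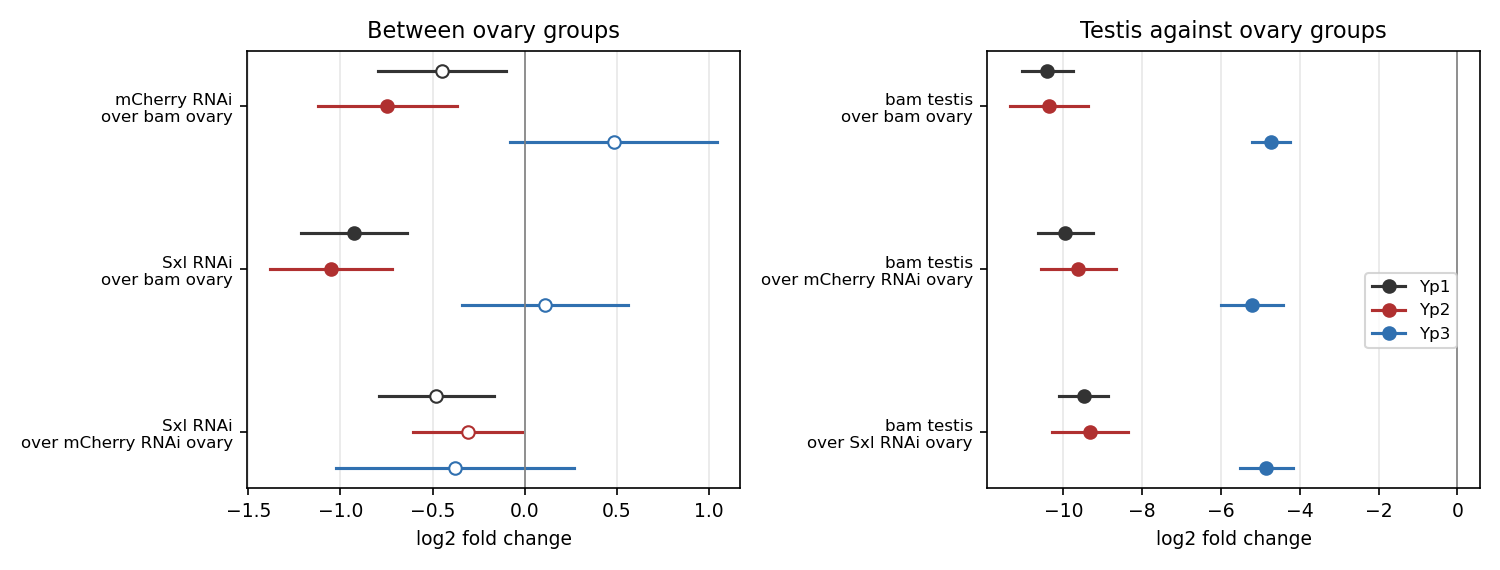
Log2 fold change of each yolk protein gene in 6 pairwise comparisons with its 95% interval (bars), filled where the adjusted p is under 0.05 and open otherwise; the panels have different horizontal scales. Yp1 and Yp2 lie near -10 in all testis comparisons and Yp3 near -5, while between ovary groups the values lie between -1.05 and 0.48.

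Yp3 made up a larger mean share of the yolk protein reads in both RNAi groups than in bam ovaries, in tests of 3 against 3 libraries that could not pass the threshold. This share is a ratio within a library and does not depend on how libraries are scaled to each other. Yp3 gave 14.3%, 19.1% and 18.8% of yolk protein reads in the bam ovaries, 31.3%, 36.6% and 26.3% with mCherry RNAi, and 37.2%, 28.3% and 28.1% with Sxl RNAi. Every RNAi library was above every bam ovary library, and the 2 RNAi groups overlapped. Yp2 went the other way, with 66.7% ± 2.80 (SD, n = 3) in bam ovaries, 53.2% ± 4.50 in mCherry RNAi and 54.7% ± 5.11 in Sxl RNAi ovaries. Each of these 4 differences from bam ovaries, 2 for Yp3 and 2 for Yp2, had an exact two-sided permutation p of 0.1, the smallest that 3 against 3 libraries allow, and 0.18 after adjustment over 9 tests. The 3 shares are parts of one total in each library, so a higher Yp3 share and a lower Yp2 share are not separate results.

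Yp1 kept a narrower share, at 15.9% ± 0.308 in bam ovaries, 15.4% ± 0.666 in mCherry RNAi and 14.1% ± 0.870 in Sxl RNAi ovaries (SD, n = 3). The Sxl RNAi libraries were all below the bam ovaries (exact permutation p = 0.1, adjusted p = 0.18), while mCherry RNAi against bam ovaries gave an exact p of 0.3 and an adjusted p of 0.386. Between Sxl RNAi and mCherry RNAi ovaries the exact p was 0.2 for Yp1, 0.7 for Yp2 and 1.0 for Yp3, with adjusted values of 0.3, 0.788 and 1.0, in a design that cannot fall under 0.1. In testes Yp3 made up 92.2%, 89.3% and 92.5% of the yolk protein reads, against a highest ovary value of 37.2%. There were 4.21 ± 0.231 Yp2 reads for each Yp1 read in bam ovaries and 4.31 ± 1.02 in testes, which differed by less than the spread in testes. The ratio was 3.45 ± 0.163 with mCherry RNAi and 3.88 ± 0.448 with Sxl RNAi (SD, n = 3), and its mCherry RNAi values, 3.26 to 3.56, lay below the bam ovary values of 3.99 to 4.45.

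**Figure D4:**
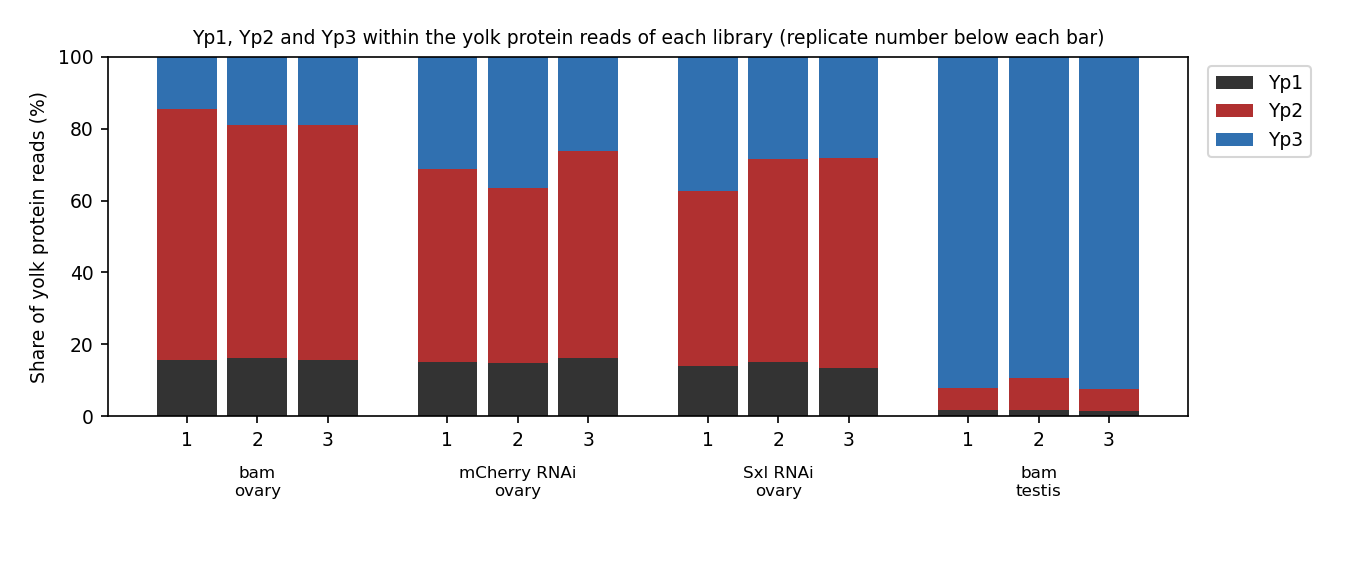
Share of Yp1, Yp2 and Yp3 in the yolk protein reads of each of the 12 libraries, in percent, with 1 stacked bar per library. Yp3 makes up 14.3% to 19.1% in bam ovaries, 26.3% to 37.2% in RNAi ovaries and 89.3% to 92.5% in testes.

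Genes known to regulate the yolk protein genes were measured beside them. Of 15 regulators tested between bam testes and bam ovaries, 7 were lower and 0 higher in testes by edgeR, against 32.7% of all genes called in either direction and 16.3% lower, and 9 and 0 by DESeq2 or before adjustment, with a median log2 fold change of -0.94 against 0.01 over all genes. They included Sxl (-2.46, SE 0.40, adjusted p = 0.00454), tra, which directs female splicing of doublesex (-0.94, SE 0.17, adjusted p = 0.00681), and the ecdysone receptor gene EcR (-1.66, SE 0.34, adjusted p = 0.0119). The ecdysone response genes Eip75B and Eip74EF (-2.18 and -2.16, adjusted p = 0.00347 and 0.00482) and the juvenile hormone receptor gene gce (-1.74, adjusted p = 0.00362) were lower as well. The gene dsx itself gave -0.91 (SE 0.31, adjusted p = 0.0642), with 53.4, 46.3 and 30.7 CPM in bam ovaries and 18.2, 19.3 and 31.5 CPM in testes, where the groups overlapped. These counts are per gene and do not show which sex-specific splice form was present.

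The cofactor genes of sex-specific splicing and transcription, tra2 and ix, gave -0.16 and -0.24 between testes and bam ovaries (adjusted p = 0.301 and 0.382). The ecdysone receptor partner usp gave -0.33 and the GATA factor gene srp -0.58 (adjusted p = 0.115 and 0.141). In the comparisons of Sxl RNAi ovaries Sxl was the only regulator past the threshold by edgeR, of 16 tested against mCherry RNAi and 15 against bam ovaries. In mCherry RNAi against bam ovaries edgeR and DESeq2 called 0 of 15, and 1 had an edgeR p under 0.05 before adjustment. In Sxl RNAi against mCherry RNAi ovaries tra gave -0.21, dsx 0.19 and EcR 0.31, with adjusted p-values of 0.647, 0.735 and 0.459.

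Genes of yolk uptake stood near the median of all genes. Of 18 tested between bam testes and bam ovaries, 2 were lower and 1 was higher by edgeR, a smaller share than the 32.7% of all genes called. By DESeq2, and by edgeR before adjustment, 5 were lower and 4 higher, and DESeq2 called 3732 of all 9738 genes. The smaller share therefore depends on the tool. The list median was 0.01, equal to that of all genes. The receptor gene yl stood at 83.1, 82.1 and 75.1 CPM in bam ovaries and 40.0, 21.0 and 45.9 CPM in testes, without overlap, as in 48.2% of all genes tested (-1.16, SE 0.31, adjusted p = 0.0297). The lipophorin receptor gene LpR1 gave -3.57 (SE 0.32, adjusted p = 0.000411) and the endosome gene Rab7 0.73 (SE 0.14, adjusted p = 0.00839). In the 3 comparisons between ovary groups 0 of the 18 were called by edgeR or DESeq2, and at most 2 had an edgeR p under 0.05 before adjustment.

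Eggshell genes, which follicle cells express after or together with yolk proteins, included values close to those of Yp1 and Yp2. Of 22 eggshell genes 13 were tested between bam testes and bam ovaries, and 9 of these passed the count minimum only through the ovaries, so that their direction was fixed by the filter. Of the other 4, 3 were lower in testes, against 16.3% of all genes tested, and 0 were higher by edgeR, DESeq2 or before adjustment. Among the 9 were the vitelline membrane genes Vm26Aa (log2 fold change -10.69, SE 0.40), Vm34Ca (-10.37, SE 0.35) and Vm26Ab (-10.07, SE 0.42), with values about as large as those of Yp1 and Yp2, and psd, which is needed to form the vitelline membrane (-6.98, SE 0.20). Of 13 follicle cell genes 8 were lower in testes, against the same 16.3% of all genes, among them the somatic gonad factor tj (-3.02, SE 0.21, adjusted p = 0.000167). Of these 8, cas and the follicle cell cadherin gene Cad99C (-6.29, SE 0.53) passed only through the ovaries.

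**Figure D5:**
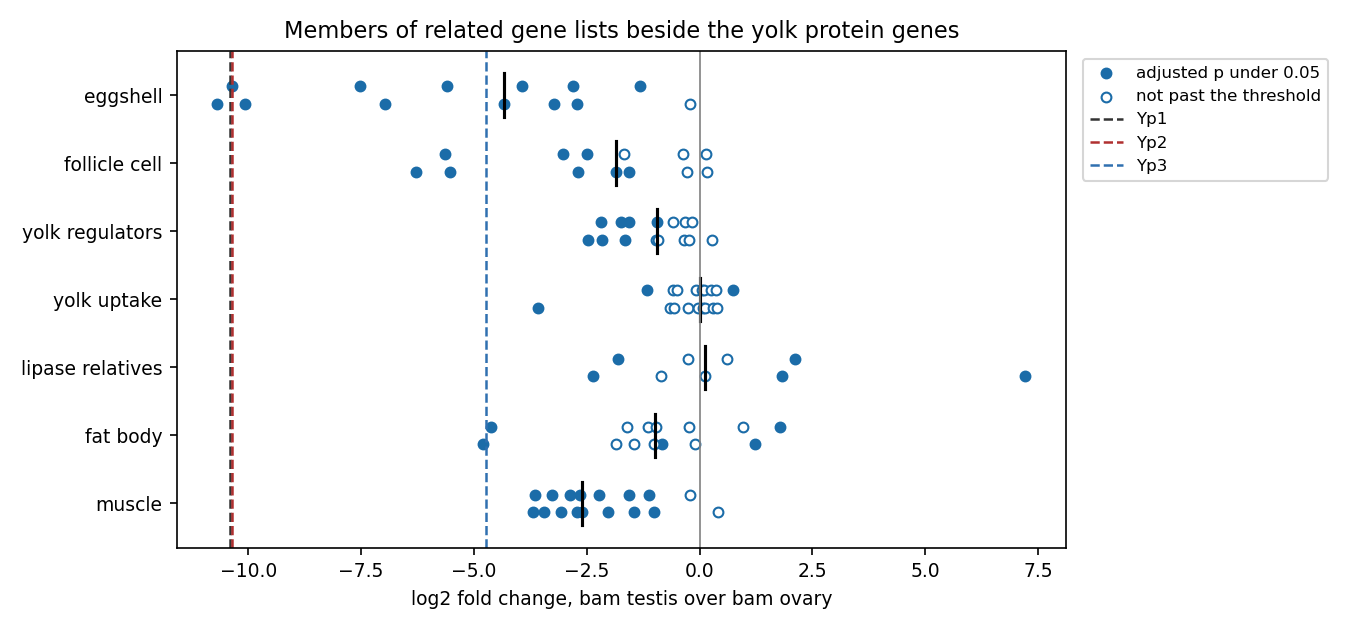
Log2 fold change between bam testes and bam ovaries of the tested members of 7 gene lists, filled where the adjusted p is under 0.05 (also for Yp1, 9 eggshell genes and the few other members that passed the count minimum only through the ovaries), with the list median as a black bar and Yp1, Yp2 and Yp3 as dashed lines. Only eggshell genes lie beside Yp1 and Yp2 among these lists, and Yp3 lies within the spread of eggshell, follicle cell and fat body members.

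Between ovary groups a few eggshell genes passed the threshold, in both directions. Of 15 tested in mCherry RNAi against bam ovaries by edgeR, Vm26Ab (-0.96), Vm34Ca (-1.18), the chorion gene Cp7Fb (-1.57) and ndl, which encodes a follicle cell protease (-1.35), were lower, and Vml, a vitelline membrane-like gene, was higher (2.17), with adjusted p-values of 0.0125, 0.0281, 0.0175, 0.0332 and 0.0340. These 5 stood against 6.11% of all genes called in this comparison. The list median of the log2 fold change was -0.69 against -0.01 over all genes. The number called fell from 5 to 0 without bam ovary replicate 1 or mCherry RNAi replicate 1, to 1 without bam ovary replicate 2 and to 3 without mCherry RNAi replicate 3. In Sxl RNAi against bam ovaries Vm34Ca was lower (-1.09, adjusted p = 0.0244) and Vml higher (2.53, adjusted p = 0.0204), 2 of 15 against 5.98% of all genes called, with a median of -0.41, and these 2 calls became 0 without bam ovary replicate 1 or 2 or Sxl RNAi replicate 2 or 3, and 1 without bam ovary replicate 3. Between Sxl RNAi and mCherry RNAi ovaries edgeR called 0 of 18 and DESeq2 called 2, both higher, and 4 were higher before adjustment. Over all 10059 genes edgeR called 0.209% and DESeq2 called 327 genes.

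The fat body is the other known source of yolk protein RNA. The 17 fat body genes summed to 1219.7 to 1597 CPM in bam ovaries, 482 to 840 CPM in mCherry RNAi, 544 to 827 CPM in Sxl RNAi ovaries and 319 to 482 CPM in testes, with Pepck1 at 0 in every group and to at 0 in testes. Of 14 tested between bam testes and bam ovaries 3 were lower, the transferrin gene Tsf1 (-4.63), fit, which encodes a female-enriched fat body peptide (-4.80), and Glt (-0.83), and 2 were higher, Obp99a (1.77) and Apoltp (1.23), with adjusted p-values of 0.000113, 0.00537, 0.0211, 0.0136 and 0.0448. These 5 of 14 are close to the 32.7% of all genes called, and fit passed the count minimum only through the ovaries. Tsf1 made up most of the bam ovary sum, at 1010 to 1130 CPM, and was also lower in mCherry RNAi ovaries (-2.49, SE 0.32, adjusted p = 0.00977) and Sxl RNAi ovaries (-1.94, SE 0.15, adjusted p = 0.00118). The other 16 fat body genes summed to 210.2 to 465 CPM in bam ovaries, 367 to 547 CPM in mCherry RNAi and 306 to 510.4 CPM in Sxl RNAi ovaries, so the lower sum of the RNAi groups was that of Tsf1. In testes these 16 genes summed to 288.6 to 419.3 CPM, within the range of the bam ovaries. Glt was higher with mCherry RNAi than in bam ovaries (0.70, adjusted p = 0.0288). The part of these differences in those of the yolk protein genes was not tested.

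In each group the library with the most Yp3 also had the highest sums of muscle and of accessory gland genes, and in 3 of the 4 groups the highest fat body sum. For the 17 muscle genes in testes this rests on the scaling factor of replicate 2, 0.8094 against 0.9531 and 1.0592 in the other replicates. The accessory gland sums of these libraries were 29.1 CPM in bam, 30.3 CPM in mCherry RNAi and 36.8 CPM in Sxl RNAi ovaries and 3135 CPM in testes. In mCherry RNAi replicate 2 the fat body sum was 840 CPM against 482 and 577 CPM in the other replicates, and the muscle sum 18994 CPM against 15782 and 15180 CPM. In Sxl RNAi replicate 1 the fat body sum was 827 CPM against 637 and 544 CPM, and the muscle sum 22737 CPM against 13569 and 14937 CPM. The exception was bam ovary replicate 2, which had the most Yp3 and the highest muscle sum but less fat body RNA than replicate 3. Whether the level of Yp3 follows these tissues was not tested.

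Muscle genes, which the sheath of the ovary and testis expresses, were also lower in testes, at 15 of 17 tested against 16.3% of all genes, with a median of -2.60. Of 11 hemocyte genes 2 were lower and 1 was higher in testes, a share near the 32.7% of all genes called. Accessory gland genes were higher in testes at 16 of 20 tested by edgeR, against 16.4% of all genes. However, 15 of the 16 passed the count minimum only through the testes, and DESeq2 called 6 and gave no adjusted p for 12. Their sum of 3135 CPM in testis replicate 2 stood against 557 and 237 CPM in the other testes and 8.24 to 36.8 CPM in ovaries. The same replicate had the highest testis CPM of each yolk protein gene, although as a share of assigned reads Yp1 was highest in replicate 1. Without testis replicate 2 the log2 fold changes against bam ovaries were -10.57 for Yp1, -10.77 for Yp2 and -4.87 for Yp3. Of 4 tested genes listed for sperm storage organs and oviduct, 2 were lower in testes and CG18628 was higher (7.17, adjusted p = 0.000116). Tdc2, one of the lower ones, passed the count minimum only through the ovaries. The 11 genes of this list summed to 25100 to 65400 CPM in testes and 389 to 406 CPM in bam ovaries, with 5 of them at 0 in testes. Of 6 germ cell genes 1 was lower and 2 were higher. Both lists stood against 16.3% of all genes called lower and 16.4% called higher.

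Of the genes related to the yolk proteins by sequence, the lipase family, 9 of 24 were tested between bam testes and bam ovaries, with 3 higher, 2 lower and a median of 0.13. The lower ones were CG6847 (-1.81) and CG18641 (-2.37), and the higher ones CG14034 (7.22), CG5966 (2.12) and CG13282 (1.83), with adjusted p-values of 0.000603, 0.0246, 0.0222, 0.0112 and 0.000465. CG18641 passed the count minimum only through the ovaries and CG14034 only through the testes, so their directions were fixed, and 5 of 9 compares with 32.7% of all genes called. CG13282 was also higher in mCherry RNAi (0.89, adjusted p = 0.0111) and Sxl RNAi ovaries (0.94, adjusted p = 0.0164) than in bam ovaries, opposite in sign to Yp1 and Yp2. CG6847 was higher in mCherry RNAi ovaries (0.71, adjusted p = 0.0121).

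Genes beside the yolk protein genes on the X chromosome gave values in both directions. Cht6, a chitinase gene that ends 147 bases from Yp2, was lower in testes (-2.89, adjusted p = 0.0214), and CG15312, 130 bases from the end of Yp1, gave -1.41 (adjusted p = 0.0817). asRNA:CR45185, which lies within the span of Cht6 on the other strand, was at 7.03 ± 0.834 CPM in bam ovaries and 0.0873 ± 0.151 CPM in testes (SD, n = 3, log2 fold change -6.04), a direction fixed by the count filter. Its level was also lower with Sxl RNAi when set against bam ovaries (-1.62, adjusted p = 0.0320), but the library kit does not mark strand, so its reads cannot be told apart from Cht6 transcripts. CG33557, 40901 bases away, was higher in testes (0.81, adjusted p = 0.0376) and lower with mCherry RNAi than in bam ovaries (-1.12, adjusted p = 0.0301). Gr9a and lncRNA:CR45602 had means under 1 CPM in every group and were not tested between testes and bam ovaries.

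Beside Yp3, CG32625 was lower in testes (-0.93, adjusted p = 0.0148). Rtc1, which ends 947 bases before Yp3, gave 0.15 (adjusted p = 0.571), and rdgB, which starts 1204 bases after it, gave -1.11 (adjusted p = 0.0700). CtsB and amrt gave 0.31 and -0.22 (adjusted p = 0.367 and 0.454), and asRNA:CR43833 was not tested. Between ovary groups none of these neighbours of Yp3 was called by edgeR.

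The genes whose pattern over the 12 libraries was nearest to each member were found among 7612 genes by the root mean square difference of log2(CPM + 0.5) after each gene's own mean was taken away. For Yp1 they were Yp2 (0.296), Vm26Aa (0.299), Vm34Ca (0.405), Vm26Ab (0.475) and CG13299 (0.662). For Yp2 they were Vm26Aa (0.253), Yp1 (0.296), Vm34Ca (0.481), Vm26Ab (0.577) and CG13299 (0.804). Yp3 was at rank 37 for Yp1 and rank 40 for Yp2, at distances of 1.83 and 2.08. The testis levels of Yp1 and of the genes named here other than Yp2 and Yp3 were near or below the 0.5 CPM added before the logarithm, which limits how far apart such genes can lie.

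Nearest to Yp3 over the 12 libraries were the transglutaminase gene Tg (0.275), Sytalpha (0.326), CG13403 (0.328), lncRNA:CR43857 (0.332) and CG5023 (0.344). Sytalpha and CG13403 had means of 17.6 and 16.1 CPM in bam ovaries and 0.0201 and 0.0430 CPM in testes, so their distance to Yp3 is set by the added 0.5 CPM, and their own ratios between the sexes were far larger than that of Yp3. Over the 9 ovary libraries alone, where the testis difference does not enter, Yp1 was nearest to TM4SF (0.106), CG31886 (0.140), Yp2 (0.149), CG8852 (0.158) and aos (0.162), and Yp2 to TM4SF (0.113), Yp1 (0.149), CG31886 (0.155), CG8852 (0.159) and Kif3C (0.170). Yp3 was nearest to CG13920 (0.117), the immune receptor gene PGRP-LC (0.120), Spn77Ba (0.121), CG8012 (0.122) and loh (0.126), with Yp1 at rank 5896 and Yp2 at rank 6888. By this distance Yp3 therefore lay farther from its paralogs than from most of the 7612 genes compared. The distance takes in the size of changes as well as their shape, so these ranks do not show that the patterns are opposed.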

How the data were processed

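The deposited values were whole-number counts of reads per gene, made by the authors in 1 file per library. Per the labels' protocols, polyadenylated RNA was isolated with RNA-bee and 200 ng per library went into a TruSeq RNA v2 kit. The submitters' processing notes list TopHat2 2.1.1, Bowtie2 2.2.9, HTSeq 0.9.1, DESeq, FastQC and build BDGP6; the sources used here do not give the counting options or annotation release. The 5 summary lines, 12.0% to 17.1% of reads, were left out. Symbols matched 17253 of 17559 gene IDs and 181 of 186 list entries; br, FASN1, PPO1, wupA and vas had no match. Exon positions were read from Ensembl's BDGP6 annotation, possibly of another release than the one counted.

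Groups and replicate numbers came from the sample titles. Each comparison was fitted on its 6 libraries with edgeR 4.0.16 in R 4.3.3 (trimmed mean of M values, filterByExpr, robust quasi-likelihood F test) and adjusted by Benjamini-Hochberg over all genes tested, with a threshold of 0.05. All 3 yolk protein genes passed the filter in every comparison. The SE was the log2 fold change divided by the square root of F, and intervals used t quantiles. Alternatives were DESeq2 1.42.0, 2 other scalings, 2 other filters, all 12 libraries in one fit, a replicate block and leaving out each library. Duplicate libraries were looked for; the lowest chi-square per degree of freedom within a group was 9.32, so all 12 were kept.

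The yolk protein genes and all lists were chosen with earlier results of these data known, so list counts are descriptions. Besides Yp1, Yp2, Yp3 and their main regulators, the text names up to 4 members of a list with the smallest p in testes against bam ovaries. Some members called between ovaries are named, and others, among them hemocyte and germ cell genes, are not. The 3 nearest genes on each side and the 5 nearest patterns among genes of at least 5 CPM in ovaries are named too. Other genes were named after their values were seen. On simulated counts with 100 genes changed 2-fold and 100 changed 4-fold, 35% and 92% were recovered in testes against bam ovaries (9738 genes), 77% and 99% in Sxl RNAi against mCherry RNAi (10059 genes) and 60% and 99% in mCherry RNAi against bam ovaries (9940 genes), with 5, 5 and 12 false calls among 132, 181 and 171. The number of changed genes was not matched to the real comparisons, which called 3186, 21 and 607 genes, so these rates may not hold there.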

Additional observations from a re-analysis of the deposited data

How the results depend on the processing

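Yp2 and Yp3 stayed past the threshold in the 3 testis comparisons under each of 13 alternatives and in the test of the sex effect against the Sxl effect under each of 17. Yp1 did too, but the count filter fixed its direction there, so this says nothing of its stability. Against bam ovaries the testis values lay between -10.57 and -10.18 for Yp1, -10.77 and -10.16 for Yp2 and -4.87 and -4.62 for Yp3. The testis values of Yp1 and Yp2 rest on fewer than 50 reads per library, which limits their precision.

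Between ovary groups the calls were less stable, and the cause was not tested. DESeq2 called Yp1 in Sxl RNAi against mCherry RNAi ovaries (-0.49) and in mCherry RNAi against bam ovaries (-0.46). The call of Yp2 in mCherry RNAi against bam ovaries was lost with upper-quartile scaling (-0.74), no filter (-0.75) and all 12 libraries in one fit (-0.74), and over libraries left out in turn it ranged from -0.83 to -0.66. Left out in turn, libraries gave -0.99 to -0.87 for Yp1 and -0.11 to 0.23 for Yp3 in Sxl RNAi against bam ovaries, where Yp3 reversed to -0.11 without Sxl RNAi replicate 1. Eggshell genes called in Sxl RNAi against mCherry RNAi ovaries numbered 2 with DESeq2. In mCherry RNAi against bam ovaries they numbered 3 with all 12 libraries in one fit and 0 to 4 with libraries left out. In Sxl RNAi against bam ovaries they numbered 5 with DESeq2, 1 without a filter and 0 to 2 with libraries left out.

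Replicate numbers did not pair the samples throughout. Over 7790 genes the deviations of same-numbered libraries correlated between -0.711 and 0.56, with 5 of 18 pairs over 0.1 and no comparison with all 3. In testes against mCherry RNAi ovaries, replicates 2 and 3 gave 0.56 and 0.454, each higher than with other numbers. With so few libraries, this check cannot settle whether those samples were paired. With the replicate block, Yp2 in mCherry RNAi against bam ovaries gave -0.74 (adjusted p = 0.185), and eggshell calls numbered 0 there and 1 in Sxl RNAi against bam ovaries. The block lowered all calls from 3186 to 1696 in testes against bam ovaries, 21 to 3 in Sxl RNAi against mCherry RNAi, 607 to 93 in mCherry RNAi against bam and 578 to 200 in Sxl RNAi against bam ovaries; it changed them from 4177 to 5320 in testes against mCherry RNAi and from 4004 to 3289 against Sxl RNAi ovaries, and from 2658 to 2299 in the test of the sex effect against the Sxl effect. DESeq2 made 327, 1262 and 1186 calls in the 3 ovary comparisons, and in Sxl RNAi against mCherry RNAi ovaries no filter gave 39 and all 12 libraries in one fit 43.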
